A study of Mus musculus with 24 samples.

Results

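The gene 5830411N06Rik (ENSMUSG00000054672), known as Scart2, encodes a membrane protein of the scavenger receptor cysteine-rich family and is described across every library of the series. It is 1 of the 7926 genes in the deposited expression table, taken by its name and not for its values. γδ T cells carry a T cell receptor built from a γ and a δ chain, and some of them leave the thymus already committed to making interleukin-17, the cytokine that recruits neutrophils to barrier tissues. In mice the Scart receptors are used as surface markers of such cells, with Scart1 and Scart2 on cells that use different γ chains. PLZF, the product of Zbtb16, is a transcription factor of innate-like lymphocytes, and its own transcript was not analysed here.

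The libraries came from γδ T cells of male C57Bl/6 mice carrying the PLZF-GFP reporter, aged 16 to 22 weeks. PLZF+ cells and PLZF- cells were sorted from epididymal adipose tissue, lung, inguinal lymph node and spleen, which gives 8 groups of 3 Smart-seq2 libraries, 24 in all. Smart-seq2 makes cDNA from the whole transcript of small cell numbers. All groups carry the reporter, so the sort is by its signal, and the series text speaks of cells pooled from 10 mice for each of 2 replicates. Since 3 libraries per group are labelled and nothing says that they came from separate pools, p-values measure only the spread between these libraries.

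Reads assigned to genes of the table numbered 56791 to 834442 per library. Depth relative to the mean library was 0.170 and 0.177 in PLZF- lung libraries 2 and 3, and 0.312 and 0.329 in PLZF+ lung libraries 2 and 3. The 4 CD3 genes, whose products form the signalling part of every T cell receptor, were read in all 8 groups, and Tcrg-C2, a γ chain constant segment, ranged from 22.3 to 592 normalized reads over the libraries. Other cells' transcripts were present too. Macrophage and dendritic cell markers (10 genes in the table) took 4.19% to 6.80% of reads in PLZF+ lung and 2.93% to 7.71% in PLZF- lung. Endothelial, stromal and adipocyte markers (13 genes) took 0.304% to 4.96% in PLZF+ adipose tissue and 0.0609% to 6.48% in PLZF- adipose tissue. B cell markers (8 genes) took 0.837% to 2.38% in PLZF+ spleen and 0.318% to 2.41% in PLZF- spleen. αβ T cell markers (5 genes) took 0.609% to 0.681% in PLZF+ spleen and 0.642% to 0.849% in PLZF- spleen. In lymph node the αβ markers took 0.551% to 0.608% in PLZF+ cells and 0.783% to 1.06% in PLZF- cells. The part of all these markers in the results below was not tested.

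On the mouse genome (GRCm38, mm10), 5830411N06Rik lies on the + strand of chromosome 7 from 140247284 to 140300736 and is annotated as protein coding. GENCODE lists 5 transcripts, of which 2 are coding and 3 are retained-intron transcripts, and the longest coding one has 16 exons and 3342 bases. Its neighbour on the same strand is Cd163l1, the gene of the related receptor Scart1, which ends 16138 bases upstream and was not analysed here. The window before the gene start is printed because ROR, RUNX and SOX proteins, transcription factors that act in IL-17 producing T cells, have short known motifs that can be looked for in it. From RefSeq (GRCm38.p6), chr7:140247051-140247278 on the + strand reads as follows, with the single match to the ROR core in capitals.
5830411N06Rik promoter: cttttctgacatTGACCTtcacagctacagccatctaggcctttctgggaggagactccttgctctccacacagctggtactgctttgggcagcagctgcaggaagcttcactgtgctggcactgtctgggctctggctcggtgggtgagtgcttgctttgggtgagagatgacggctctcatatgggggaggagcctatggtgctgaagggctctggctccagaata
The ROR core AGGTCA, which is only part of a ROR element, was searched on both strands and found once, on the minus strand. The match lies 216 bases before the RefSeq gene start at 140247279, and 12.9% of 32851 promoter windows hold this core. The rest of a ROR element was not searched, so the match does not show a whole one. The RUNX core TGTGGT, present in 13.1% of windows, and the SOX and TCF core ACAAAG, present in 15.3%, had 0 matches here, which says only that these letters are not in this window.

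5830411N06Rik was read in all 24 libraries, and all lymph node libraries but 1 stood above every library of the other tissues. Values are normalized reads, whole reads worked back from the deposited log2 values and scaled to the mean depth. Adipose tissue held the least in PLZF+ cells. PLZF+ adipose cells had 112, 56.7 and 106 normalized reads, from 85, 38 and 42 reads, and PLZF- adipose cells had 475, 452 and 129.9, from 1013, 401 and 99 reads. In normalized reads every PLZF+ adipose library lay below every PLZF- adipose library, with the nearest pair at 112 and 129.9. As a share of each library's reads, without the deposited scaling, the subsets overlapped. PLZF- library 3, with 99 of 496783 reads, then lay below PLZF+ libraries 1 (85 of 233573) and 3 (42 of 196007). Adipose library 1 of the PLZF- cells, which carried the least endothelial, stromal and adipocyte signal (0.0609%), had the highest value of its group, and library 3, with 6.48%, the lowest. PLZF- library 2, with 4.73% of such signal, had 452 normalized reads, close to the 475 of library 1. Among PLZF+ adipose libraries, library 1, with the least such signal (0.304%), also had the highest value, 112 normalized reads. Libraries 2 and 3 did not follow that order, with 56.7 at 3.53% and 106 at 4.96%. The part of this signal in the values was not tested.

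Lung cells showed the opposite order of the subsets. PLZF+ lung cells had 325, 352 and 456 normalized reads, from 697, 110 and 150 reads, and PLZF- lung cells had 214, 58.9 and 226, from 345, 10 and 40 reads. Every PLZF+ lung library lay above every PLZF- lung library, though the lowest of the PLZF- values rests on 10 reads.

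Lymph node cells reached the highest values. In PLZF+ lymph node cells the gene had 1234, 1437 and 2685 normalized reads in libraries 1, 2 and 3, and in PLZF- lymph node cells 340.0, 2402 and 2038. Library 1 of the PLZF- lymph node cells lay 7.06-fold under the highest of its group and below every PLZF+ lymph node library, while the other two lay within the PLZF+ range. In that library macrophage and dendritic cell markers took 2.07% of reads, against 0.0160% and 0.00650% in libraries 2 and 3, and Itgae, the αE integrin CD103, had 149 normalized reads against 571 and 502. CD3 genes summed there to 2591 normalized reads, against 3217 and 2962, and the part of these differences in its low Scart2 value was not tested.

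Spleen cells held the gene at an intermediate level, with closer values in PLZF- than in PLZF+ cells. PLZF+ spleen cells had 283, 467 and 545 normalized reads and PLZF- spleen cells 402, 388 and 354. The PLZF- values lay inside the PLZF+ range, so the subsets overlapped in spleen.

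**Figure D1:**
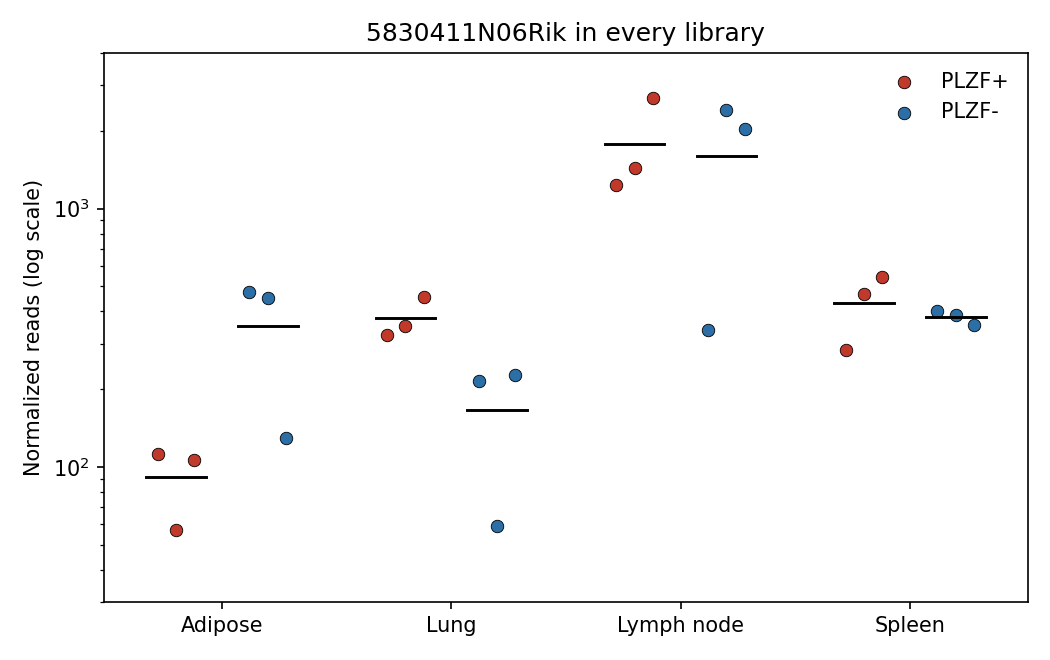
Normalized reads of 5830411N06Rik in each of the 24 libraries on a log axis, with PLZF+ libraries in red, PLZF- libraries in blue and a black bar at each group's mean of 3. All lymph node libraries but 1 lie at 1234 or above, PLZF- lymph node library 1 at 340.0 lies among spleen and lung, and the 3 PLZF+ adipose libraries lie at 112 or below.

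Ordered by mean normalized reads (± SD, n = 3 each), PLZF+ lymph node cells came first at 1785 ± 786 and PLZF- lymph node cells next at 1593 ± 1100. PLZF+ spleen cells followed at 432 ± 134, PLZF- spleen cells at 381 ± 24.7 and PLZF+ lung cells at 378 ± 69.2. PLZF- adipose cells at 352 ± 193, PLZF- lung cells at 166 ± 93.3 and PLZF+ adipose cells at 91.4 ± 30.2 closed the order. All 7 pairs of neighbours in this order had overlapping ranges. Between PLZF- lymph node cells and PLZF+ spleen cells the overlap came only from PLZF- lymph node library 1 at 340.0, and the log2 difference was 1.51 (95% interval 0.18 to 2.84; limma unadjusted p = 0.0279, adjusted p = 0.402). The mean of PLZF+ adipose cells was 19.5-fold below that of PLZF+ lymph node cells. Per kilobase of transcript, mean normalized reads of 27.4 placed the gene at rank 1063 of 7856 genes in PLZF+ adipose cells and 49.8 at rank 493 in PLZF- lung cells. The same measure was 534 in PLZF+ lymph node cells, at rank 21, and 477 in PLZF- lymph node cells, at rank 38. In the other 4 groups it lay between 105 and 129, at ranks 151 to 339.

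No difference between PLZF+ and PLZF- cells passed the test when averaged over tissues. Over 12 libraries each, PLZF+ cells ranged from 56.7 to 2685 normalized reads with a median of 404, and PLZF- cells from 58.9 to 2402 with a median of 371. In the fit of all 8 groups to the deposited log2 values (limma, Benjamini-Hochberg adjustment over 5007 genes tested), the difference averaged over tissues was 0.056 ± 0.32 (SE; 95% interval -0.61 to 0.72; adjusted p = 0.979). The sign of this difference turns under 5 of 13 other settings and 4 of 24 libraries left out, which sets no direction. In the same comparison 1.46% of tested genes were called. An exact permutation of subset labels within tissues, 160000 arrangements, two-sided, gave a mean log2 difference of 0.060 and p = 0.877.

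Within tissues the PLZF contrast ran in opposite directions in adipose tissue and lung, and neither passed the test over all genes. In adipose tissue mean normalized reads were 3.85-fold lower in PLZF+ than in PLZF- cells, and the log2 difference was -1.78 ± 0.64 (95% interval -3.11 to -0.45; unadjusted p = 0.0111, limma adjusted p = 0.881). In lung they were 2.27-fold higher in PLZF+ cells, and the log2 difference was 1.37 ± 0.64 (95% interval 0.045 to 2.70; unadjusted p = 0.0434, limma adjusted p = 0.621). Without PLZF- adipose library 3 the adipose difference was -2.39, and without PLZF- lung library 2, the one with 10 reads, the lung difference was 0.76. Exact two-sided permutation within each of these tissues gave p = 0.1, the smallest that 20 arrangements allow. The permutations, here and over all tissues, did not keep PLZF+ and PLZF- libraries paired by replicate number. In spleen the log2 difference was 0.13 ± 0.64 (limma adjusted p = 0.932) and in lymph node 0.50 ± 0.64 (adjusted p = 0.950). The signs in spleen and lymph node rest on single libraries, turning to -0.064 without PLZF+ spleen library 3 and to -0.40 without PLZF- lymph node library 1. Called genes made up 0.0999% of those tested in adipose tissue, 0.0999% in spleen, 0.0399% in lung and 0.3% in lymph node, so calls were rare for any gene there.

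The F test for a difference between the 4 PLZF contrasts gave F = 4.36 on 3 degrees of freedom (unadjusted p = 0.0159, limma adjusted p = 0.630), where 0.0799% of genes were called. Of all pairs of tissues, adipose tissue and lung differed most, with the PLZF contrast 3.15 lower in adipose tissue on the log2 scale (-3.15 ± 0.90, 95% interval -5.03 to -1.28, limma unadjusted p = 0.00221, adjusted p = 0.485). Other differences were -2.29 for adipose tissue minus lymph node, -1.91 for adipose tissue minus spleen and -1.24 for spleen minus lung. Lung minus lymph node was 0.87 and spleen minus lymph node -0.38, and no pair passed the adjusted test. With limma's library weights, the F test passed for this gene (F = 6.85, adjusted p = 0.0462), as it did for 337 genes in place of 4.

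**Figure D2:**
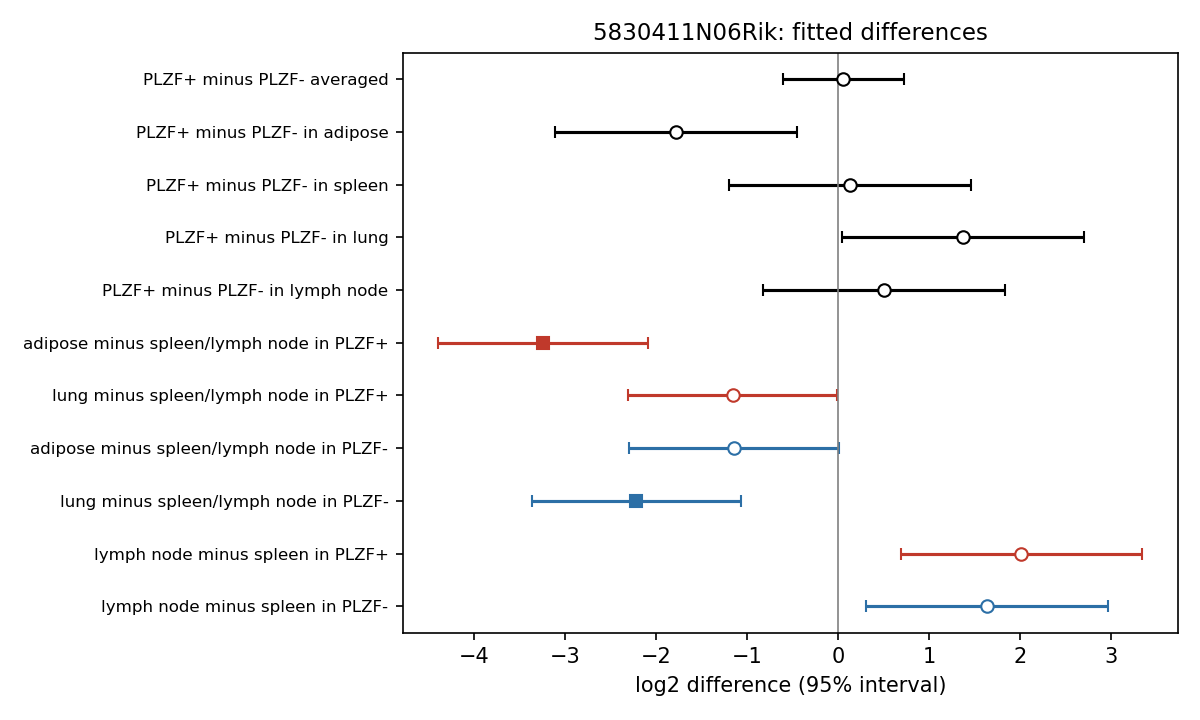
Fitted log2 differences of 5830411N06Rik with 95% intervals for the PLZF contrasts (black) and for tissue contrasts within PLZF+ cells (red) and PLZF- cells (blue); filled squares have an adjusted p under 0.05 over all 5007 genes and open circles do not. The adipose and lung PLZF contrasts lie on opposite sides of 0, at -1.78 and 1.37, and the filled squares are adipose tissue in PLZF+ cells at -3.24 and lung in PLZF- cells at -2.21.

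Against the mean of spleen and lymph node, the gene was lower in PLZF+ adipose cells and in PLZF- lung cells. The table holds only genes that the authors found to differ between tissues, and for 5830411N06Rik the authors' deposited table gives p = 0.000132 and q = 0.00510, rank 1104 of 7926, so these contrasts follow that selection. In PLZF+ cells adipose tissue lay 9.46-fold below the lymphoid mean, a log2 difference of -3.24 ± 0.55 (limma adjusted p = 0.000447), where 10.5% of tested genes were called lower. The median of all tested genes in that contrast was 1.15 on the deposited scale and 0 on recovered reads, and the gene fell by 3.24 on both. A gene with 0 reads is placed by depth on the deposited scale, which touches weakly read genes but not Scart2. In PLZF- cells lung lay 4.64-fold below the lymphoid mean, a log2 difference of -2.21 ± 0.55 (limma adjusted p = 0.00298), where 18.4% were called lower. Without lung libraries 2 and 3 of both subsets, the shallow ones, this difference was -1.65 (adjusted p = 0.254) and no longer passed. In that PLZF- lung contrast 2794 genes were called higher and 919 lower on the deposited values, but 925 and 924 on recovered reads, and the median of all tested genes was 2.06 and 0.21 on these scales.

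The remaining pair of contrasts did not pass. In PLZF+ cells lung differed from the lymphoid mean by -1.16 ± 0.55 on the log2 scale (limma adjusted p = 0.0883), where 7.03% of genes were called lower. In PLZF- cells adipose tissue differed by -1.14 ± 0.55 (limma adjusted p = 0.0954), where 15.4% were called lower. Both passed without PLZF- lymph node library 1, whose group enters the first only through the shared spread, at -1.16 (adjusted p = 0.0470) and -1.59 (adjusted p = 0.00956).

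Lymph node was also set against spleen, a comparison chosen after the values were seen. In PLZF+ cells mean normalized reads were 4.13-fold higher in lymph node, no lymph node library overlapped a spleen library, and the log2 difference was 2.01 ± 0.64 (95% interval 0.69 to 3.34; unadjusted p = 0.00485, limma adjusted p = 0.121), where 1.44% of genes were called. In PLZF- cells the mean was 4.18-fold higher in lymph node, lymph node library 1 lay below all 3 spleen libraries, and the log2 difference was 1.64 ± 0.64 (unadjusted p = 0.0181, limma adjusted p = 0.367), where 0.399% were called. Without PLZF- lymph node library 1 both passed, at 2.01 (adjusted p = 0.0374) in PLZF+ cells and 2.54 (adjusted p = 0.0227) in PLZF- cells.

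Set against the 4 CD3 genes of the same library, the gene showed a wider gap between subsets in adipose tissue and overlapping subsets in lung. In bulk samples fewer cells of a type and less RNA per cell cannot be told apart, and the CD3 genes give 1 scale for how much T cell RNA a library held. That scale itself differs by subset: Cd3e, Cd3g and Cd247 were higher in PLZF+ cells over all tissues, each by 0.96 or more on the log2 scale (limma adjusted p = 0.0179 to 0.0252), and Cd3d had a difference of 0.43 (adjusted p = 0.533). A higher scale in PLZF+ cells lowers the CD3-scaled PLZF contrasts. Their sum was 1830 ± 553 normalized reads in PLZF+ and 733 ± 361 in PLZF- adipose cells (SD, n = 3 each). It was 1791 ± 490 in PLZF+ and 707 ± 346 in PLZF- lung cells, and all spleen and lymph node libraries were at 2048 or above. Per 100 CD3 reads, the gene had 4.69, 3.08 and 8.33 reads in PLZF+ adipose cells and 43.6, 61.0 and 35.2 in PLZF- adipose cells. The subsets of adipose tissue lay far apart on this scale, and the PLZF- values reached those of lymph node. PLZF+ lymph node cells had 40.9, 35.3 and 63.8 reads per 100 CD3 reads, and PLZF- lymph node cells 13.1, 74.7 and 68.8.

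In lung the subsets overlapped on the CD3 scale, with 14.2, 26.8 and 25.9 reads per 100 CD3 reads in PLZF+ cells and 19.3, 11.5 and 44.9 in PLZF- cells. Spleen means were 15.7 ± 8.03 in PLZF+ cells and 16.1 ± 2.46 in PLZF- cells. When the whole table was scaled on the CD3 genes, a setting added after the values were seen, the PLZF contrast in adipose tissue became -3.19 (limma adjusted p = 0.00238) and that in lung 0.013. Under this scaling 910 genes were called in the adipose contrast, against 5 on the deposited scale, so a call is far less rare there. The lower level of lung against lymphoid tissue in PLZF- cells became -0.22 (adjusted p = 0.697), and that of adipose tissue turned to 0.87 (adjusted p = 0.119). In PLZF+ cells the adipose difference remained, at -2.33 (adjusted p = 0.00244).

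**Figure D3:**
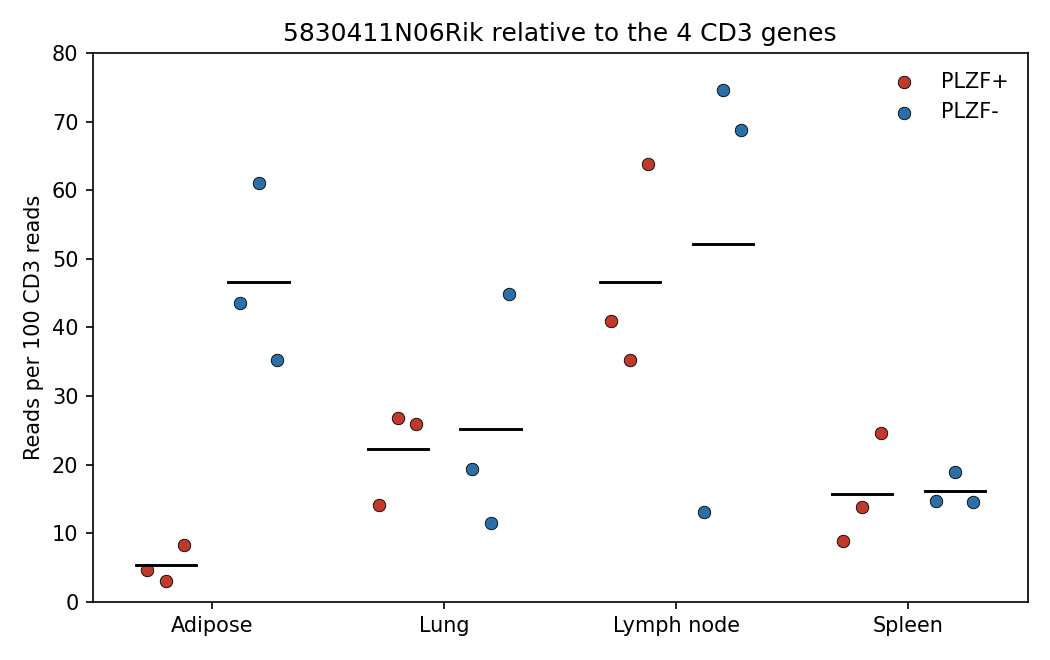
Reads of 5830411N06Rik per 100 reads of the 4 CD3 genes in each library, PLZF+ in red, PLZF- in blue and a black bar at the mean of 3. In adipose tissue the PLZF+ libraries lie at 3.08 to 8.33 and the PLZF- libraries at 35.2 to 61.0, while in lung the subsets overlap.

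Of 30 genes listed for the IL-17 programme, 5 are in the table and were tested, and 3 of these were higher in PLZF+ cells over all tissues while Scart2 did not pass. Their median log2 difference was 1.58, against 0.082 for all tested genes, of which 0.799% were called higher and 0.659% lower. Ptgdr2, a prostaglandin D2 receptor, rose by 2.74 ± 0.35 (limma adjusted p = 0.00024), Il17a by 2.52 ± 0.55 (adjusted p = 0.0218) and Ccr6, a homing receptor of IL-17 producing cells, by 1.58 ± 0.31 (adjusted p = 0.0120). Il17f, the sister cytokine, differed by 0.69 (adjusted p = 0.890) and Batf, a transcription factor of IL-17 differentiation, by 0.26 (adjusted p = 0.955).

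The receptors and the cytokines of this list ran differently across tissues. Ccr6 had 21.01, 20.9 and 10.1 normalized reads in PLZF+ adipose cells, 177, 221 and 268 in PLZF+ lung cells, 636, 675 and 842 in PLZF+ lymph node cells and 187, 315 and 192 in PLZF+ spleen cells. Like Scart2 it was lowest in adipose tissue and highest in lymph node among PLZF+ cells, with a log2 difference of -4.52 (limma adjusted p = 1.42e-05) for adipose tissue against lymphoid tissue. Il17a was instead highest in lung. It had 142, 55.2 and 25.2 normalized reads in PLZF+ adipose cells and 409, 230.4 and 362 in PLZF+ lung cells, but 4.59, 11.7 and 15.6 in PLZF+ lymph node cells. Against lymphoid tissue Il17a rose by 3.82 in PLZF+ adipose cells (limma adjusted p = 0.00676) and by 6.27 in PLZF+ lung cells (adjusted p = 0.000165).

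In PLZF+ adipose cells against lymphoid tissue, 2 of the 5 IL-17 genes rose (Il17a and Il17f) and 2 fell (Ccr6 and Ptgdr2). In PLZF- adipose cells 1 rose and 3 fell, in PLZF+ lung cells 2 rose and 1 fell, and in PLZF- lung cells 1 rose and 1 fell. Over all tested genes the called shares on the deposited scale, higher and lower, were 27.2% and 10.5% in PLZF+ adipose cells and 29.7% and 15.4% in PLZF- adipose cells. In lung they were 29.3% and 7.03% in PLZF+ cells and 55.8% and 18.4% in PLZF- cells.

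**Figure D4:**
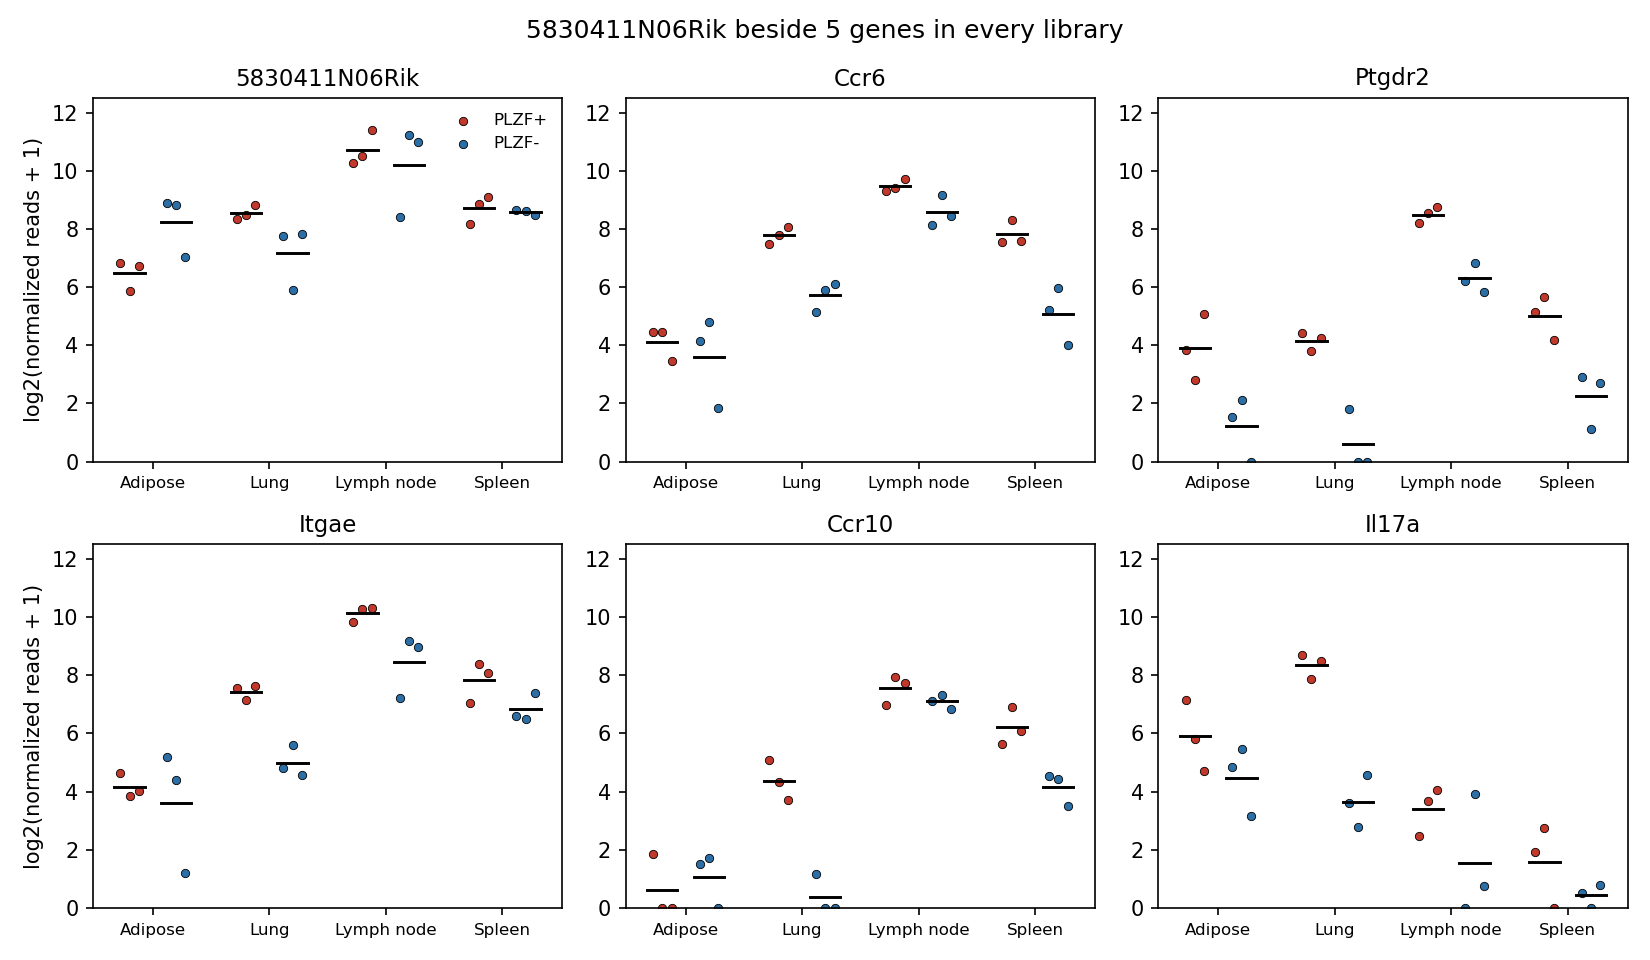
log2(normalized reads + 1) of 5830411N06Rik, Ccr6, Ptgdr2, Itgae, Ccr10 and Il17a in each library, PLZF+ in red, PLZF- in blue and black bars at the mean of 3. The first 5 panels are highest in lymph node, while Il17a is highest in PLZF+ lung cells.

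Of 24 listed γδ receptor genes, 8 are in the table, and 1 of them, Tcrg-C2, was higher in PLZF+ cells over all tissues (log2 difference 1.06, limma adjusted p = 0.0494). The median of the 8 was 0.47, against 0.082 for all tested genes, of which 0.799% were called higher. Against lymphoid tissue 7 of the 8 fell in PLZF+ adipose cells, 6 in PLZF- adipose cells, 6 in PLZF+ lung cells and 7 in PLZF- lung cells, and none rose. The shares of all tested genes called lower in these contrasts were 10.5%, 15.4%, 7.03% and 18.4%. Their median in PLZF+ adipose cells was -1.95, against 1.15 for all tested genes on the deposited scale. Scart2 fell with this list in PLZF+ adipose cells and in PLZF- lung cells. Other T cell genes fell there too. In PLZF+ adipose cells every αβ T cell marker tested fell, from -1.34 (Trbc1) to -3.48 (Cd8b1), with limma adjusted p at most 0.0246. Every naive and lymphoid homing gene tested also fell (adjusted p at most 0.0264), but of the CD3 genes only Cd3d passed (adjusted p = 0.0253). In PLZF- lung cells all CD3 genes, all αβ markers but Trbv3, and Tcf7, Dapl1 and Cd7 of the homing list passed as lower. Tcrg-V4, a γ chain variable segment, had 139, 163 and 239.7 normalized reads in PLZF+ lymph node cells and 119.9, 378 and 262 in PLZF- lymph node cells. As with Scart2, PLZF- lymph node library 1 was the lowest of its group for Tcrg-V4, and also for Tcrg-C2, with 173 against 419 and 425 normalized reads.

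Of 23 genes listed for the scavenger receptor cysteine-rich family, 10 are in the table and 9 were tested, Scart2 among them. One of the 9, Loxl1, a lysyl oxidase of the extracellular matrix, lacks the domain, so counts without it, chosen after the values were seen, stand beside those of the list. Over all tissues 1 was higher in PLZF+ cells, Lgals3bp, a secreted galectin-binding glycoprotein, by 0.91 ± 0.22 (limma adjusted p = 0.0419). One was lower, Cd6, a T cell surface receptor that binds CD166, which fell by 1.71 ± 0.39 (limma adjusted p = 0.0255). Without Loxl1 these counts were also 1 and 1. Of all tested genes 0.799% were called higher and 0.659% lower, and the median of the 9 was 0.19, against 0.082 for all tested genes. In PLZF+ adipose cells against PLZF+ lymphoid cells 4 of the 9 rose (3 without Loxl1) and 4 fell, beside 27.2% and 10.5% of all tested genes. Those that rose were Cd163, a haemoglobin scavenger receptor of macrophages, Scara5, a ferritin receptor, and the lysyl oxidases Loxl1 and Loxl2, and those that fell were Scart2, Cd6, Lgals3bp and Prss12, a secreted serine protease. In PLZF- adipose cells against PLZF- lymphoid cells 4 rose (3 without Loxl1) and 3 fell, beside 29.7% and 15.4%. In lung none rose in either subset, beside 29.3% in PLZF+ cells and 55.8% in PLZF- cells, and 2 fell in PLZF+ cells and 5 in PLZF- cells, beside 7.03% and 18.4%. These shares are on the deposited scale, which places genes with 0 reads by depth. On recovered reads the lung contrasts called 719 genes higher in PLZF+ cells and 925 in PLZF- cells, against 1467 and 2794. Cd6 had 5.25, 0 and 5.05 normalized reads in PLZF+ adipose cells, against 129, 101 and 100.2 in PLZF+ lymph node cells and 197, 149 and 159.5 in PLZF+ spleen cells.

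Genes with the pattern most like that of Scart2 were sought by Pearson r over the 24 libraries, on log2(normalized reads + 1), among 2845 genes with a mean of at least 10 normalized reads. The libraries share tissue, subset and depth, and the values are given as a description. The highest were Ccr10, a receptor for skin and mucosal chemokines, at 0.822, Itgae, at 0.815, and Cntnap1, a contactin-associated adhesion protein, at 0.813. Kmt2a, a histone methyltransferase, had 0.791, and Zfp398, Gtf2h2, Nsd1, Cabin1, Aak1 and Atp8b4 lay between 0.760 and 0.782. The median over all genes compared was -0.205. Of the 10 highest, 3 stayed among them without lung libraries 2 and 3 of both subsets, and 4 when r was taken over the 8 group means. The lowest were Rnf130, Mgst1, Dhrs3, Wwc2 and the complement gene C3, from -0.852 to -0.807.

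Ccr10 and Itgae, chosen for their likeness to Scart2, were by that choice high in lymph node and low in adipose tissue. Ccr10 had at most 2.63 normalized reads in any adipose library, but 123, 244 and 214 in PLZF+ lymph node cells and 139, 158 and 114 in PLZF- lymph node cells. Itgae had 23.6, 13.4 and 15.1 normalized reads in PLZF+ adipose cells and 899.9, 1231 and 1265 in PLZF+ lymph node cells. Ccr10 was higher in PLZF+ cells over all tissues, a test that Scart2 did not pass, by 1.41 ± 0.32 (limma adjusted p = 0.0252), and Itgae differed by 1.43 ± 0.36 (adjusted p = 0.0520). The difference between these genes and Scart2 was not tested.

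By list, r with Scart2 had a median of 0.644 over 5 γδ receptor genes, 0.586 over the 4 CD3 genes, 0.534 over 4 αβ T cell markers, 0.484 over 5 IL-17 genes and 0.433 over 5 genes of naive and lymphoid homing cells. The median was 0.418 over 7 genes of the scavenger receptor list, -0.186 over 8 B cell markers and -0.498 over 8 tissue residency genes. In the residency list only 2 genes, Ccr10 and Itgae, had an r above 0. In the IL-17 list Ccr6 had 0.731 and Ptgdr2 0.688, but Il17f -0.132 and Il17a -0.206. Macrophage and dendritic cell markers had a median of -0.720 over 10 genes, immediate early genes -0.711 over 16, and endothelial, stromal and adipocyte markers -0.642 over 13. Immediate early genes, which respond within minutes to stimulation or tissue handling, took 3.73% to 6.15% of reads in PLZF+ adipose cells and 4.91% to 5.70% in PLZF+ lung cells, against 0.482% to 0.594% in PLZF+ lymph node cells. The part of these marker shares in the level of Scart2 was not tested.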

How the data were processed

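The authors deposited log2 values that, per the file headers, are TMM scaled and filtered on a tissue variable, beside their own p-value and q-value of each gene. A second sheet was not used. The submitters' processing notes name Cufflinks 1.2, HISAT 0.1.6, SAMtools 1.2 and the build mm10. A one-way test over the 4 tissues matched the p-value of 7915 genes to 0.001 in log10 units, and 11 merged entries were left out. Whole reads were worked back for 7924 genes (99.97%) from log2(reads + 0.5) plus 1 term per library and 1 per gene. Among low values, 1 read was the most frequent (11225), but above it even numbers outnumbered the next odd ones (9986 values of 2 and 3166 of 3, 4417 of 4 and 1922 of 5). Both ends of some read pairs may have been counted, which was not tested; levels compare libraries and are not molecules. Whether strand was used in counting is not given in the sources used here.

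Genes reaching a log2 value of 1 in 3 or more libraries were tested with limma 3.58.1 (R 4.3.3) on 8 group means with a shared spread and a trend. Only the PLZF contrast averaged over tissues was tried on simulated data, and the other contrasts and the F test were not. Samples were grouped by the labels. The design foresaw log2 values, which were used as they are. Members, lists and tests were chosen with earlier results of these data known. Genes named are 5830411N06Rik, the 10 highest and 5 lowest in Pearson r with it, members of the IL-17, γδ receptor and scavenger receptor lists, and up to 4 of each other list; not all of these are printed. All 19 genes of the interferon-gamma list were not analysed here. Python libraries were scipy 1.17.1, numpy 2.4.6, matplotlib 3.10.9 and pandas 2.3.3.

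Equal replicate numbers were taken to pair PLZF+ and PLZF- libraries in adipose tissue, lung and lymph node, where deviations from group means correlated at 0.662, 0.179 and 0.572, at 0.515, 0.360 and 0.200, and at 0.357, 0.204 and 0.209. In spleen the correlations were -0.014, -0.057 and -0.050, and the libraries share a number only. Equal numbers were not always the best match. PLZF+ adipose library 2 correlated at 0.299 with PLZF- adipose library 3, above its 0.179. PLZF- lung library 3 correlated at 0.272 with PLZF+ lung library 2, above its 0.200. The main fit did not use the pairing, and where the pairing comes from is not in the labels. Alternatives were recovered reads with 3 pseudocounts, limma voom, other filters and scalings, library weights, replicate blocks, and each library left out.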

Additional observations from a re-analysis of the deposited data

Results flagged for a closer look

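The PLZF contrast of 5830411N06Rik in adipose tissue minus that in lung was -3.15 on the log2 scale. It was singled out because, in normalized reads, PLZF+ libraries all lay below PLZF- libraries in adipose tissue and above them in lung. As a share of each library's reads, the adipose subsets overlapped. The difference between the contrasts, the largest of the pairs of tissues compared, had an unadjusted p of 0.00221 in limma. Adjusted over all genes it was 0.485, and the pair was chosen after the values were seen.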

How the results depend on the processing

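Adipose tissue against lymphoid tissue in PLZF+ cells passed under every setting run, from -4.26 to -2.33 and from -3.41 to -2.93 with a library left out. The cause of the other changes was not tested. Averaged over tissues, the PLZF difference was -0.021 with limma voom, -0.027 with median centring, -0.15 with library weights, -0.14 without lung libraries 2 and 3, -0.79 with CD3 scaling (adjusted p = 0.0523), and -0.17 to 0.18 with a library left out. In spleen it was -0.50 with median centring, -0.16 with CD3 scaling and -0.064 to 0.41 with a library left out; in lymph node -0.40 to 1.01. In adipose tissue it was -3.19 with CD3 scaling and -2.39 to -1.46 with a library left out, and in lung 0.013 and 0.76 to 1.70. Lung against lymphoid tissue in PLZF+ cells passed with median centring (-2.46) and with the groups compared only (-1.16), and was -0.22 with CD3 scaling (adjusted p = 0.727) and -1.30 to -0.99 with a library left out; in PLZF- cells it was -1.65 without lung libraries 2 and 3 and -0.22 with CD3 scaling. Adipose tissue in PLZF- cells passed with quantile normalization (-1.63), median centring (-2.26) and library weights (-1.31), turned to 0.87 with CD3 scaling, and was -1.59 to -0.53 with a library left out. Lymph node against spleen passed with library weights in PLZF+ (2.26) and PLZF- cells (2.22) and with the groups compared only in PLZF+ cells (2.01), and was 1.68 to 2.24 and 1.13 to 2.54 with a library left out. The F test passed with library weights (6.85). Of the 10 genes most alike, 3 were shared without lung libraries 2 and 3 and 4 over group means.

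With the replicate block within tissue no call for the gene changed, at -1.78 (adjusted p = 0.329) in adipose tissue and F = 5.83 (adjusted p = 0.233). Counts of called genes moved widely: 73 over all tissues (27 to 1375), 5 in adipose tissue (0 with voom to 910), 5 in spleen (1 to 673), 2 in lung (0 to 729), 15 in lymph node (0 to 154) and 4 in the F test (0 to 337). Against lymphoid tissue they were 1891 (607 to 3648) and 1819 (151 to 3526) in PLZF+ adipose tissue and lung, and 2256 (1077 to 4076) and 3713 (147 to 6579) in PLZF- ones; lymph node against spleen gave 72 (21 to 596) in PLZF+ and 20 (2 to 631) in PLZF- cells. Depth limits PLZF- lung libraries 2 and 3 most, with 10 and 40 reads of the gene.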
